A study of Bos indicus with 12 samples.

Results

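The CpGs of the unplaced scaffolds are described here, that is, CpGs on pieces of the cattle assembly ARS-UCD1.2 that have no assigned chromosome. They were chosen by name alone, as every row of the deposited table whose sequence name starts with chrUn, and no measured value entered the choice. They numbered 2565 of the 635469 cytosines in the table and lay on 251 scaffolds, while 629700 cytosines lay on the 29 autosomes used for comparison. Reduced representation bisulfite sequencing (RRBS) had been run on *Longissimus thoracis* skeletal muscle of 12 Nelore (*Bos indicus*) steers, 1 library per animal. The 6 animals of the Tough group had higher shear force of the meat and the 6 of the Tender group had lower shear force, measured 7 days after slaughter according to the sample labels. No animal was treated, and all had been kept in feedlots under the same ration and handling. The groups are extremes of a larger population, which the paper ranked by estimated breeding value for shear force. The muscle was sequenced whole, so a difference in methylation within cells and a difference in the mix of cells cannot be told apart. The reads of these *Bos indicus* animals were aligned to a *Bos taurus* reference. Whether differences in DNA sequence enter the values of single cytosines was not tested. The tissue label was not checked against marker genes, because these values measure methylation at scaffolds for which no gene annotation was used here.

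In mammals, a methyl group on the cytosine of a CpG is copied to the new strand when DNA is replicated, and most CpGs outside CpG-rich promoters carry it. Clusters of closely spaced CpGs, the CpG islands, usually stay free of methylation. RRBS cuts DNA at CCGG with the enzyme *MspI* and therefore reads mainly CpG-rich fragments, and sequence that an assembler could not place is often repetitive.

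All 2565 cytosines had at least 10 reads in each of the 12 animals, since the authors had kept only such cytosines. Before the authors' scaling of coverage, the median number of reads per unplaced cytosine was between 35 and 65 in an animal, against 20 to 33 at autosomal cytosines. At a methylation of 50%, 47 reads, the median over cytosines and animals, leave a binomial standard error of 7.29%, which covers counting only. Reads at unplaced cytosines made up 0.826% to 0.956% of all reads in 9 animals and 1.09% to 1.16% in the libraries Tough 3, Tender 7 and Tender 8. These 3 libraries also had the lowest mapping efficiency in the study's alignment statistics. Relative to the 9 others, their depth-corrected coverage had a median ratio of 1.25 over the 251 scaffolds and was above 1 on 201 of them, whereas the ratio over single autosomes was between 0.988 and 1.02. The part of mapping efficiency in this difference was not tested. Their mean methylation on unplaced scaffolds was between 60.5% and 61.2%, inside the range of the 9 others (59.8% to 61.8%). Some results below are also given without these 3 libraries. The coverage ratios of scaffolds, the single windows and most single cytosines are given with them only.

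**Figure D1:**
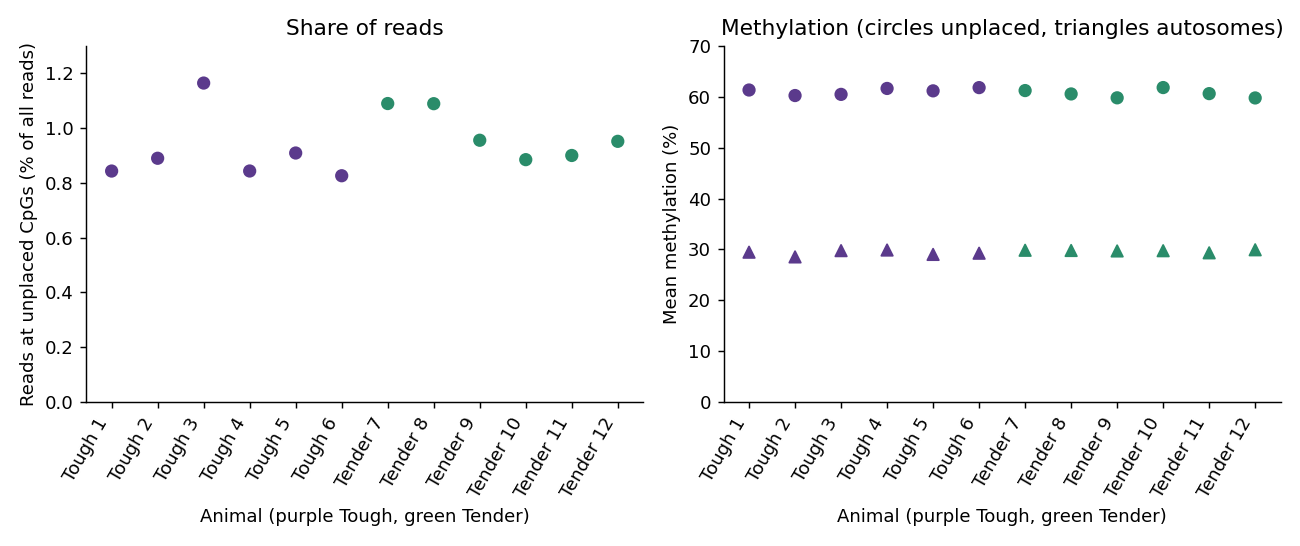
Share of reads at unplaced CpGs (left, % of all reads) and mean methylation (right, %, circles for unplaced scaffolds and triangles for autosomes) in each of the 12 animals, with Tough animals in purple and Tender animals in green. Tough 3, Tender 7 and Tender 8 lie at 1.09% to 1.16% of reads, above the 9 other animals, while methylation on unplaced scaffolds stays between 59.8% and 61.8% in all 12.

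CpGs of unplaced scaffolds were more methylated than autosomal CpGs in every animal. Mean methylation over the 2565 cytosines was 60.9% ± 0.729 (SD, n = 12 animals), with the lowest animal at 59.8%, the median at 60.9% and the highest at 61.8%. On autosomes it was 29.5% ± 0.422 (SD, n = 12), with a range of 28.5% to 29.9%. The difference within an animal was 31.4 percentage points ± 0.841 (SD, n = 12) and was positive in 12 of 12 animals, so the 2 sets of values did not overlap. The means of the 29 autosomes, taken 1 by 1, lay between 23.1% and 36.3%. The difference remained 31.5 points without Tough 3, Tender 7 and Tender 8.

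CpGs without methylation were much rarer on unplaced scaffolds. Of the unplaced cytosines, 302 (11.8%) had a mean below 5% over the 12 animals, against 52.6% of autosomal cytosines. Only 28 (1.09%) had 0% in every animal, against 13.7% on autosomes. At the median of 341.5 reads over 12 animals, a count of 0 allows a level of up to 0.878% at such a cytosine.

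Intermediate and high levels were correspondingly more frequent. A mean of 20% to 80% was found at 918 unplaced cytosines (35.8%, autosomes 17.7%), a mean of 80% to 90% at 463 (18.1%, autosomes 6.90%) and a mean above 90% at 621 (24.2%, autosomes 13.5%). At 243 cytosines (9.47%) every animal lay between 20% and 80%, compared with 3.32% of autosomal cytosines, so intermediate means did not need animals at opposite extremes. Only 2 unplaced cytosines (0.078%) ranged from 5% or less in 1 animal up to 95% or more in another, against 0.361% on autosomes.

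**Figure D2:**
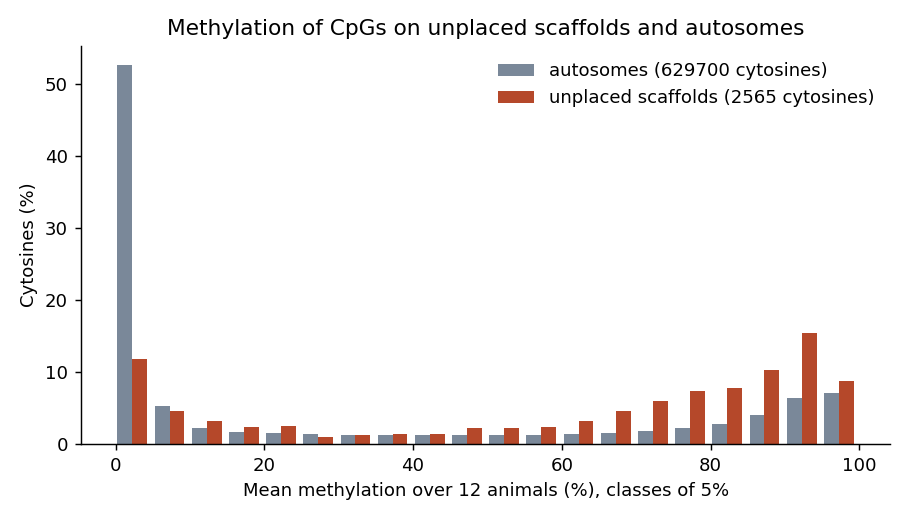
Percent of cytosines (vertical axis) in classes of 5% of mean methylation over 12 animals (horizontal axis), for unplaced scaffolds (red) and autosomes (grey). The class below 5% holds 52.6% of autosomal and 11.8% of unplaced cytosines, and the red bars are the higher ones in all classes above 60%.

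The level differed widely between scaffolds. Scaffolds held between 1 and 203 cytosines each (median 5), and 22 of them held only 1. The 10 with the most cytosines held 773 (30.1%), and the 64 with at least 10 held 1784 (69.6%). Differences between scaffolds made up 55.2% of the variance of mean methylation over the 2565 cytosines. This share was not corrected for the number of scaffolds. With so few cytosines on many of them, part of it would arise without any scaffold difference. The mean of a scaffold lay above the autosomal mean on 231 scaffolds and below it on 20. Of the 64 scaffolds with at least 10 cytosines, 7 had a mean under 20%, 44 a mean of 20% to 80% and 13 a mean above 80%.

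Low methylation was concentrated in a few scaffolds. Just 5 of them held 189 of the 302 cytosines below 5% (62.6%), and only 43 scaffolds held any. These were chrUn_NW_020190741v1 with 53 such cytosines of 88, chrUn_NW_020190496v1 with 42 of 54, chrUn_NW_020190209v1 with 41 of 203, chrUn_NW_020190592v1 with 31 of 46 and chrUn_NW_020190439v1 with 22 of 59. On chrUn_NW_020190741v1, the least methylated scaffold with at least 10 cytosines (mean 8.50%), the Tough animals ranged from 7.23% to 9.81% (median 8.94%) and the Tender animals from 7.02% to 9.91% (median 8.01%).

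The next lowest scaffolds were chrUn_NW_020190592v1 with a mean of 9.32% over 46 cytosines and chrUn_NW_020192018v1 with 11.7% over 11 cytosines. Both had a high mean scaled coverage, 108.6 and 161 reads, so that low methylation was not limited to thinly covered scaffolds. At the other end, chrUn_NW_020191629v1 (93.6%, 13 cytosines), chrUn_NW_020190445v1 (93.6%, 10 cytosines) and chrUn_NW_020190183v1 (92.4%, 13 cytosines) had the highest means. On chrUn_NW_020191629v1 all 13 cytosines had a mean above 80%.

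**Figure D3:**
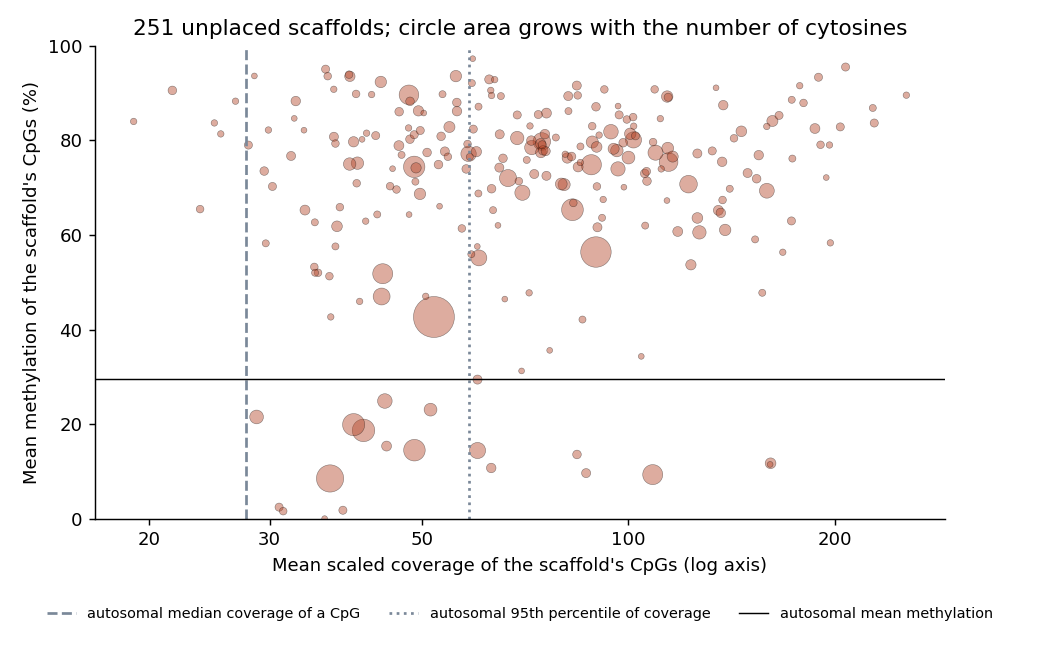
Mean methylation (%) of the cytosines of each of the 251 unplaced scaffolds against their mean scaled coverage (log axis), with 1 circle per scaffold and its area growing with the number of cytosines. Most circles lie above the black line at the autosomal mean of 29.5%, and 156 of 251 lie right of the dotted line at the autosomal 95th percentile of coverage (58.5).

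Single scaffolds also held cytosines of opposite state. Of the 64 scaffolds with at least 10 cytosines, 20 carried at least 1 cytosine below 5% and at least 1 above 80%. This count can rest on single cytosines and does not need whole regions of either state. The scaffold with the most cytosines, chrUn_NW_020190209v1, had 203 of them between positions 27950 and 257972 and a mean of 42.7%, with 41 below 5% and 63 above 80%. Its animal means ranged from 40.5% to 44.1% in the Tough group (median 42.1%) and from 40.5% to 45.3% in the Tender group (median 43.0%), and thus overlapped.

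Within this scaffold, runs of CpGs less than 51 bp apart differed strongly. The run chrUn_NW_020190209v1:98613-98658 had a mean of 1.32% over 10 CpGs, with animals from 0% to 3.89%. The run chrUn_NW_020190209v1:256720-256898 had a mean of 88.6% over 21 CpGs, with animals from 86.3% to 91.5%. An intermediate state was seen at chrUn_NW_020190209v1:45842-45972, where 12 CpGs averaged 48.8% and the animals spread from 25.4% to 66.9%. The other runs of at least 10 CpGs on this scaffold had means of 5.70%, 9.94%, 15.1% and 83.1%.

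Close spacing went with low methylation on autosomes, and less so on unplaced scaffolds. The distance to the nearest other covered CpG had a median of 8 bp on unplaced scaffolds and 7 bp on autosomes, and 58.7% and 63.5% of the cytosines had a neighbour within 10 bp, so the spacing was similar. At a distance of 1 to 5 bp, mean methylation was 49.3% ± 0.709 on unplaced scaffolds and 16.5% ± 0.292 on autosomes (SD, n = 12 animals). At 6 to 10 bp it was 67.9% ± 0.836 against 28.0% ± 0.429.

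Beyond 10 bp the gap was smaller in each further class. At 11 to 20 bp the means were 66.2% ± 1.15 and 36.2% ± 0.503, and at 21 to 50 bp they were 65.3% ± 0.871 and 47.2% ± 0.637. Beyond 50 bp, or with no neighbour on the scaffold, they were 64.4% ± 1.41 and 62.6% ± 0.795. In this last class the animals' ranges overlapped, from 61.5% to 66.9% on unplaced scaffolds and from 60.8% to 64.0% on autosomes. With the distance classes weighted as on the unplaced scaffolds, the difference was still 29.7 points, close to the 31.4 points without weighting.

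**Figure D4:**
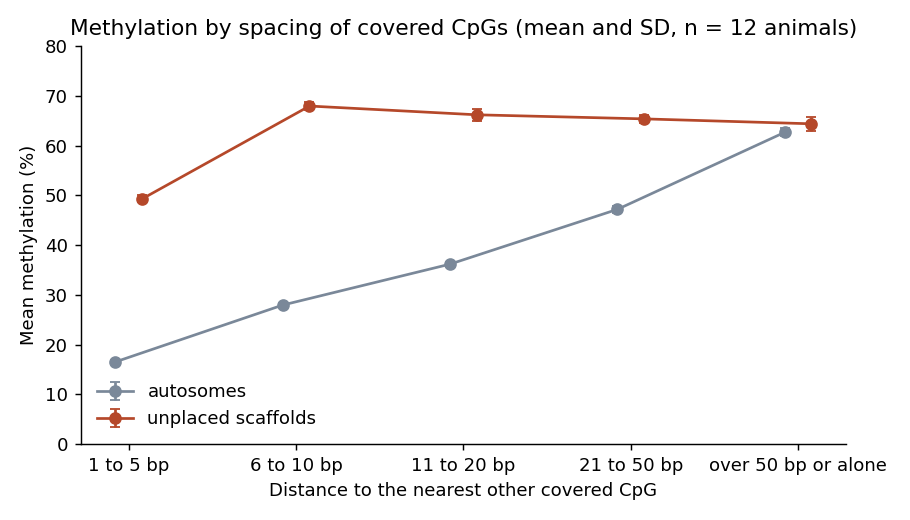
Mean methylation (%) of cytosines by distance to the nearest other covered CpG, for unplaced scaffolds (red) and autosomes (grey), with points and bars for the mean and SD over 12 animals. The autosomal mean climbs from 16.5% to 62.6% with distance, whereas the unplaced mean is 49.3% at 1 to 5 bp and stays between 64.4% and 67.9% in the other classes.

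Dense runs of CpGs were also more methylated on unplaced scaffolds, with a much wider gap in runs of 5 to 9 CpGs than in longer ones. Runs of 5 to 9 CpGs with gaps of at most 50 bp had a median methylation of 75.9% on unplaced scaffolds (113 runs), while autosomal runs of this size had a median of 2.43%. Runs of at least 10 CpGs numbered 24 on unplaced scaffolds and had a median of 14.9%, against 1.2% on autosomes. Of these 24 runs, 5 had a mean under 5% (20.8%, autosomes 82.7%) and 3 a mean above 80% (12.5%, autosomes 4.60%). The runs of chrUn_NW_020190209v1 given above are among the 24. The most methylated of the 24 was chrUn_NW_020191050v1:88577-88633, where 11 CpGs averaged 93.4% and the animals ranged from 88.8% to 95.1%. The least methylated one was chrUn_NW_020192051v1:29256-29426, with 10 CpGs at a mean of 1.16% and animals from 0% to 3.69%.

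Neighbouring CpGs were less alike on unplaced scaffolds. At 1 to 5 bp the median absolute difference between adjacent CpGs was 4.10 points on unplaced scaffolds and 0.901 on autosomes, and at 21 to 50 bp it was 13.5 and 3.70 points. Autosomal pairs are often alike because both are near 0%. Without pairs that were both below 5%, the median differences were 5.67 and 5.0 points at 1 to 5 bp and 14.9 and 7.44 points at 21 to 50 bp.

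Where a CpG was covered on both strands, its strands usually had similar levels. Of the 2565 cytosines, 1252 belonged to the plus strand and 1313 to the minus strand, and 170 CpGs were covered on both. The median absolute difference between the strands was 2.47 points (autosomes 0.826), and across these CpGs, which are not independent replicates, the strands correlated at r = 0.940 (autosomes 0.969). At 6 CpGs the strands differed by more than 25 points, which is 3.53% of the CpGs read on both strands, against 1.45% on autosomes. The widest gaps, named after their values were seen, lay 50 bp apart on chrUn_NW_020191272v1. There the plus strand had 88.6% and the minus strand 1.97% at position 10336, and the order was the opposite at position 10386, with 16% on the plus strand against 97.0% on the minus strand.

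Unplaced cytosines had more reads than autosomal ones. The median scaled coverage was 57.5 reads (5th to 95th percentile 26.1 to 191) against 27.8 (19.1 to 58.5) on autosomes. Of the unplaced cytosines, 48.3% lay above the autosomal 95th percentile and 22.7% above the 99th percentile. In single animals, the mean number of reads per cytosine on unplaced scaffolds was 2.06 to 2.91 times the autosomal mean, and it was above 2 in 12 of 12 animals. The scaffolds of at least 10 cytosines with the highest mean scaled coverage were chrUn_NW_020190813v1 (162 reads), chrUn_NW_020192018v1 (161) and chrUn_NW_020190807v1 (159), and their mean methylation was 84.1%, 11.7% and 69.4%.

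Higher methylation was found at every level of coverage. At cytosines above the autosomal 99th percentile of coverage, mean methylation was 70.9% ± 1.02 on unplaced scaffolds (581 cytosines) and 53.3% ± 0.484 on autosomes (SD, n = 12 animals). Between the autosomal 25th and 50th percentiles, 177 unplaced cytosines had a mean of 43.8% ± 1.25, against 26.3% ± 0.425. Without the 581 most covered cytosines, and without autosomal cytosines above the same limit, the difference between unplaced scaffolds and autosomes was 28.7 points. Across cytosines, coverage and mean methylation had a Spearman rho of 0.199 on unplaced scaffolds and 0.140 on autosomes, given as a description, since cytosines on the same read share their coverage.

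Coverage also varied more from animal to animal. The coefficient of variation over the 12 animals of the depth-corrected reads had a median of 37.6% at unplaced cytosines and 27.5% at autosomal ones. Without Tough 3, Tender 7 and Tender 8 the medians were 34.6% and 27.1%. The ratio of the highest to the lowest animal's relative coverage of a scaffold had a median of 2.16 over the 64 scaffolds with at least 10 cytosines, with a range of 1.28 to 5.75, and exceeded 3 on 13 of them.

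The spread of methylation between animals depended on the level. The SD over the 12 animals had a median of 7.03 points at unplaced and 4.56 at autosomal cytosines. At cytosines with a mean of 20% to 80% the order was the other way, with medians of 11.1 and 14.1 points, where the expected binomial SD at the coverage was 6.97 and 9.65 points. This methylation class was also split by autosomal percentiles of coverage (unplaced value first). Between the 75th and 99th percentiles the median SD was 11.7 points on both, at median coverages of 58.0 and 44.0. Between the 50th and 75th it was 14.5 and 13.8 points, at coverages of 31.1 and 30.8. Above the 99th it was 6.99 and 7.74 points, at coverages of 142 and 124. At cytosines with a mean below 5%, whatever their coverage, the median SD was 3.15 points on unplaced scaffolds and 1.70 on autosomes. The overdispersion factor of the model of the 2 groups had a median of 2.54 at unplaced and 1.58 at autosomal cytosines. It was computed on scaled reads and is never below 1. Between the 75th and 99th percentiles of coverage, the medians were 1.65 and 1.17 below 5% methylation. They were 2.86 and 2.54 at 5% to 20%, and 3.07 and 2.77 at 20% to 80%. At 80% to 90% they were 2.46 and 2.66, and above 90% they were 2.32 and 2.26.

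Pairs of animals were alike over the 2565 cytosines. Their correlation across cytosines was between 0.900 and 0.953 (median 0.929 over 66 pairs), and on autosomes it was between 0.939 and 0.962 (median 0.952). The 30 pairs within a group had a median of 0.930 on unplaced scaffolds and the 36 pairs between groups 0.929, so animals of the same group were not visibly closer to each other.

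Some whole scaffolds varied between animals. Among those with at least 10 cytosines, the gap between the lowest and the highest animal was largest on chrUn_NW_020191079v1, from 45.8% to 77.8% over 28 cytosines, named after its values were seen. It was next largest on chrUn_NW_020191512v1. Its 57 cytosines lay between positions 22546 and 32268 and averaged 19.9%, with no cytosine below 5% or above 80%. The Tough animals were at 17.0% (lowest), 20% (median) and 30.4% (highest), and the Tender animals at 5.72%, 18.4% and 30.5%. The groups overlapped, the Tender animals spread more widely, and the highest and lowest animals of all 12 were both Tender. Its run of 20 CpGs at chrUn_NW_020191512v1:32113-32268 ranged from 4.34% to 34.2% between animals.

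The 5 single cytosines with the largest SD over the animals had SDs of 28.3 to 37.3 points, and some of their neighbours varied widely too. The largest was at position 142316 of chrUn_NW_020190183v1 (minus strand). There the Tough animals ranged from 0% to 100% (median 71.1%) and the Tender animals from 93.3% to 100% (median 99%), the low values being 0% in Tough 2, 5.56% in Tough 5 and 55.6% in Tough 1. The 4 other covered CpGs within 18 bp had group means of 93.0% to 99.4%, and the coverage at the site was 11 to 56 scaled reads.

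At position 7732 of chrUn_NW_020191657v1 (minus strand, SD 34.4 points) values near 0 and above 50% occurred in both groups. The Tough animals were at 0% (lowest), 31.1% (median) and 85.7% (highest) and the Tender animals at 0%, 9.63% and 68.7%. Of its covered neighbours, the one 11 bp away had an SD of 7.52 points and the one 13 bp away an SD of 20.8 points. The other members of this set were position 29080 of chrUn_NW_020190352v1 (SD 30.8), position 26710 of chrUn_NW_020190911v1 (29.7, with 17.8 at the covered CpG on the same strand nearest to it) and position 6208 of chrUn_NW_020190197v1 (28.3). Position 6208 lies on the plus strand, and the SD on the minus strand of the same CpG was 11.3 points. None of the 5 passed the test between groups, with adjusted p-values between 0.351 and 1 in the logistic model with overdispersion described next.

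Whether methylation differed between Tough and Tender animals was asked at every CpG and every 100 bp window of the table. Methylated and unmethylated reads were compared by logistic regression with overdispersion and a chi-square test, with Benjamini-Hochberg adjustment of the p-values of all 635469 CpGs together. A differentially methylated cytosine (DMC) was defined by a pooled difference above 25% in either direction together with an adjusted p-value under 0.05. In the means, unplaced scaffolds hardly differed. Methylation averaged 61.1% ± 0.627 in the Tough group (60.2%, 61.3% and 61.8% as lowest, median and highest animal) and 60.6% ± 0.800 in the Tender group (59.8%, 60.6% and 61.8%). The groups overlapped, and the difference of −0.479 points (Tender minus Tough) was below the SD of both groups. The study's library statistics give a bisulfite conversion rate from spike-in controls for each library, by which 7 animals were classed as low and 5 as high. The difference was −0.497 points among the former and −0.482 among the latter. On autosomes the difference was 0.406 points, in the other direction.

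One of the 2565 unplaced cytosines was a DMC (0.039%), where 0.019% of all CpGs tested were DMCs. An adjusted p-value under 0.05 whatever the difference was reached by 3 cytosines (0.117%), against 0.135% of all CpGs. At an unadjusted p-value under 0.05 there were 221 unplaced cytosines (8.62%) and 8.29% of all CpGs, so the shares were close to the background. Of these, 90 were higher in the Tender group (3.51%, all CpGs 4.79%) and 131 higher in the Tough group (5.11%, all CpGs 3.5%). A pooled difference above 10% in either direction was seen at 176 (6.86%), against 5.95% of all CpGs. At 6 cytosines (0.234%) the values of the 2 groups did not overlap, against 0.0965% of all CpGs. The latter include the many autosomal cytosines at 0% in every animal, which cannot separate, so no excess is read from these shares. Over the 2565 cytosines, the pooled difference had a median of −0.12 points and lay between −9.08 and 7.92 points at 90% of them (5th to 95th percentile).

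The DMC was the cytosine at position 35898 of chrUn_NW_020191935v1, on the minus strand. The Tough animals had methylation levels of 81.4%, 71.2%, 49.6%, 67.6%, 44.1% and 55.7% (Tough 1 to 6) and the Tender animals of 85.8%, 94.3%, 93.3%, 97.5%, 88.7% and 84.9% (Tender 7 to 12). Every Tender animal was thus above every Tough animal, and the values of the Tough group were more spread out. The group means were 61.6% ± 14.2 and 90.8% ± 5.05 (SD, n = 6 each). The pooled difference was 34.9 points, with an adjusted p of 2.50e-05 in the logistic model. An exact permutation test over the animals (two-sided, 6 against 6) gave p = 0.00216, the smallest it can give. Every cytosine without overlap between the groups gets this value. Like the exact p-values below, it is unadjusted and was computed after picking from these same data, so it adds no support.

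Scaled coverage at the site was 34 to 264 reads, and the highest was that of Tough 3. Without Tough 3, Tender 7 and Tender 8 the pooled difference was 29.5 points, with an adjusted p of 0.0400. When each animal was left out in turn, the site stayed a DMC in 12 of 12 fits, with differences of 29.4 to 38.2 points. It was not called by the F-test (adjusted p = 0.121) or by limma on log2 ratios (adjusted p = 0.874). Limma gave 0 of all CpGs an adjusted p-value under 0.05, so its result is not particular to this site or those below. The overdispersion factor at this site was 4.78.

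The difference was not shared by the adjacent CpGs. At 12 bp, the Tough animals had 55.1%, 66.3% and 73.1% (lowest, median, highest) and the Tender animals 55.7%, 68.3% and 74.9% (adjusted p = 0.699 in the logistic model). At 46 bp, they had 68.3%, 86.2% and 94.1%, and 80.5%, 87.0% and 97.1% (adjusted p = 1 in the logistic model). The groups overlapped at both. The scaffold held 4 more covered cytosines, between positions 14648 and 29504, whose adjusted p-values were 0.736 to 1. The 7 cytosines of the scaffold averaged 77.7%.

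**Figure D5:**
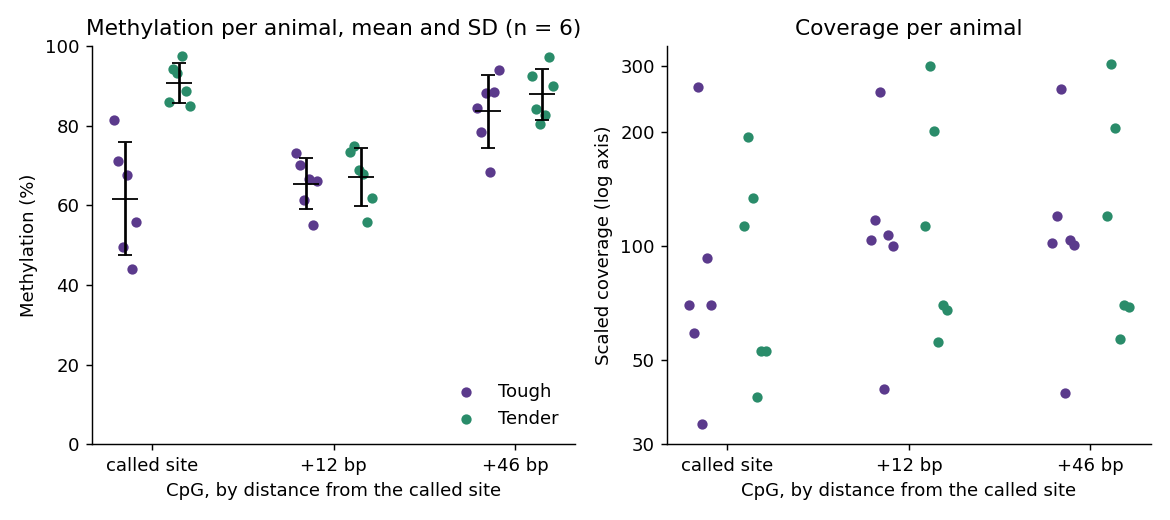
Methylation (left, %) and scaled coverage (right, log axis) of the called cytosine of chrUn_NW_020191935v1 and its neighbours at 12 and 46 bp, with 1 point per animal, Tough in purple and Tender in green, and black bars for the mean and SD of 6 animals. At the called site all Tender points (84.9% to 97.5%) lie above all Tough points (44.1% to 81.4%), and at the neighbours the groups overlap.

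Of the other cytosines with an adjusted p-value under 0.05, the one with the smaller p-value was at position 69467 of chrUn_NW_020192190v1 (minus strand). The Tough animals were at 92.3% (lowest), 94.6% (median) and 100% (highest) and the Tender animals at 73.3%, 83.9% and 88.5%. The groups did not overlap, and the pooled difference was −11.6 points, with an adjusted p of 0.00737 in the logistic model and p = 0.00216 in the exact permutation test. Coverage was 12 to 193 scaled reads. The adjusted p stayed under 0.05 in 12 of 12 fits without 1 animal. It was 0.0318 without Tough 3, Tender 7 and Tender 8 and 0.898 in limma. The F-test run gave 0.0162, but the overdispersion factor at this site was 1, where that run keeps the chi-square test. Its value is therefore no separate check of this site. The covered CpG at 25 bp had group means of 94.2% ± 6.98 and 96.7% ± 3.69.

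The other was at position 76482 of chrUn_NW_020190209v1 (minus strand), in a run of low methylation. Its Tough animals were at 1.89%, 8.32% and 14.3% (lowest, median, highest) and its Tender animals at 0%, 1.44% and 3.85%, which overlapped. The pooled difference was −7.06 points, with an adjusted p of 0.0284 in the logistic model and p = 0.00649 in the exact permutation test. The adjusted p was under 0.05 in only 5 of the 12 fits without 1 animal and reached up to 0.0999 without Tough 2, 5 or 6 or Tender 7, 8, 10 or 12. It was 0.506 in the F-test, 0.956 in limma, 0.0537 on recovered reads and 0.273 without Tough 3, Tender 7 and Tender 8. The 6 other covered minus-strand cytosines within 29 bp also had lower means in the Tender than in the Tough group, with pooled differences between −10.0 and −5.50 points, but none of them passed the test. Their reads can be the same reads, so these cytosines are not independent.

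The remaining cytosines without overlap between groups had no adjusted p-value under 0.05 in the logistic model. They were position 8038 of chrUn_NW_020190708v1 (99% ± 1.14 in Tough and 93.8% ± 4.13 in Tender animals, n = 6 each), position 7986 of chrUn_NW_020190774v1 (90.3% ± 2.33 and 96.1% ± 1.55), and 2 more that were named after their values were seen. These were position 223388 of chrUn_NW_020190209v1 (2.75% ± 3.47 and 13.1% ± 5.93) and position 10357 of chrUn_NW_020191272v1 (92.7% ± 3.01 and 82.6% ± 5.01).

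Among the 5 smallest p-values in each direction, the other sites had differences that did not pass the test. At position 118345 of chrUn_NW_020190741v1 the Tough animals had 0% to 12.5% (median 5.43%) and all 6 Tender animals 0% (adjusted p = 0.0612 in the logistic model). The 132 reads of the Tender animals at this minus-strand cytosine before scaling, all unmethylated, allow a level of up to 2.27% there. On the plus strand of the same CpG the Tough animals ranged from 0% to 11.1% and the Tender animals from 0% to 8.11%. The pooled difference on that strand was 0.591 points, in the other direction. At position 276362 of chrUn_NW_020190496v1 the Tough mean was 97.8% ± 2.30 and the Tender mean 90.4% ± 4.32 (adjusted p = 0.0502 in the logistic model). The sites with higher Tender means were position 115964 of chrUn_NW_020190718v1 (83.9% ± 4.15 and 92.8% ± 3.73), position 10150 of chrUn_NW_020190431v1 (58.5% ± 4.79 and 69.2% ± 7.17) and position 156994 of chrUn_NW_020192147v1 (78.7% ± 14.2 and 93.0% ± 6.24).

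In windows of 100 bp, where the reads of all covered cytosines were added up, 1 of 954 unplaced windows was a differentially methylated region (DMR; 0.105%), against 0.0217% of all 193249 windows. It was chrUn_NW_020191935v1:35801-35900, whose single covered cytosine is the DMC, so that it is the same measurement (adjusted p = 5.70e-06 over windows in the logistic model). A single covered cytosine was all that 357 of the 954 windows (37.4%) held. At an unadjusted p-value under 0.05 there were 78 unplaced windows (8.18%), and 8.76% of all windows.

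The window with the next smallest p-value, chrUn_NW_020190499v1:11601-11700, joined 4 cytosines. Its Tough animals were at 84.4%, 89.7% and 93.8% (lowest, median, highest) and its Tender animals at 75.2%, 78.8% and 85.7%, with a small overlap. The pooled difference was −9.97 points, with an adjusted p of 0.0176 in the logistic model and p = 0.00433 in the exact permutation test, and thus below the 25% needed for a DMR. The next, chrUn_NW_020190159v1:1801-1900, had a difference of −5.18 points and did not pass (adjusted p = 0.0642).

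Whole scaffolds showed no common direction between the groups. Of the 64 scaffolds with at least 10 cytosines, 27 had a higher mean in the Tender and 37 in the Tough group, with differences between −5.70 and 4.19 points (median −0.38). These differences are a description, with no test.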

How the data were processed

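Percent methylation was computed for *Longissimus thoracis* DNA of 12 Nelore steers, 6 per group. According to the submitters' processing notes and the methods, the authors used Trim Galore 0.4.1 for trimming, Bismark 0.23.0 for alignment to ARS-UCD1.2 and methylKit 1.8.1 for filtering. Cytosines needed 10 reads or more in every animal and a coverage up to the 99.9th percentile, and coverage was scaled between animals. The values deposited by the authors are scores, namely methylated and unmethylated reads multiplied by 1 factor per animal (1 to 1.27) and rounded. Read counts had been planned for, and the planned logistic model was kept. For an alternative, the reads before scaling were recovered (7625628 values, of which 0 failed to return exactly).

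Strands were kept apart for the levels and tests of cytosines. They were merged for spacing, runs and the comparison of adjacent CpGs. Per CpG, a logistic regression on group with overdispersion (not below 1) and a chi-square test was fitted to the whole table and adjusted by Benjamini-Hochberg. The model was tested on simulated data. Windows spanned 100 bp. Runs joined CpGs at most 50 bp apart. Python 3.11.15, numpy 2.4.6, pandas 2.3.3 and scipy 1.17.1 were used, and limma used a pseudocount of 1.

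Named sites were every DMC, the 5 smallest p-values per direction and the 5 largest SDs, and named windows every DMR and the 3 smallest p-values. Named scaffolds were the 10 with the most cytosines, those of named sites and, with at least 10 cytosines, the 3 with the highest and lowest methylation and the 3 with the highest coverage. Members and lists were chosen with earlier results of these data known. The study's text names a later shear force day than the labels, with the same groups. Gene annotation and sequence of these scaffolds were not used here.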

Additional observations from a re-analysis of the deposited data

Results flagged for a closer look

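Of 90 sets of 6 animals examined (group values of the named cytosines, scaffolds and summary measures), 3 had an animal far from the other 5 by Dixon's criterion for 6 values (0.625), and chance flags about 1 in 20. The share of reads on unplaced scaffolds was 1.164% in Tough 3, against 0.826% to 0.909% in the other Tough animals. The mean methylation of chrUn_NW_020191512v1 was 30.38% in Tough 5, against 17.0% to 21.5% in the other Tough animals. The mean methylation of chrUn_NW_020190496v1 was 15.41% in Tender 9, against 13.2% to 13.8% in the other Tender animals.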

How the results depend on the processing

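The mean methylation of unplaced cytosines (60.9%) was 65.8% with reads summed over cytosines, 70.4% with every scaffold counted the same, 62.2% with at least 20 reads in every animal, 57.9% without cytosines above the autosomal 99th percentile of coverage, 62.4% without the scaffold with the most cytosines and 62.3% with strands merged. The difference to autosomes (31.4 points) was 33.5, 40.9, 29.3, 28.7 and 32.9 points under the first 5 of these and 29.7 points within distance classes, and it stayed positive in each. The median SD between animals was 6.30 points with at least 20 reads. The mean difference between groups stayed negative in each alternative run and was −0.716 to −0.307 points when 1 animal was left out.

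The count of DMCs was 0 with the F-test, on scaled or recovered reads, 0 with limma, 4 without the overdispersion correction and 2 with a difference above 10%. It was 1 to 2 when 1 animal was left out, with 2 without Tough 1 and without Tender 9. With limma, 177 of the 2565 unplaced cytosines had an unadjusted p-value under 0.05, and 31178 of all 635469 CpGs did. Limma gave 0 of all CpGs an adjusted p-value under 0.05. With the F-test, 143 unplaced cytosines had an unadjusted p-value under 0.05. Apart from limma, counts over all CpGs under these settings are not given here, so the counts are not compared with a background. The count of DMRs was 0 with the F-test, on scaled or recovered reads, 0 in windows of 200 bp, 0 in windows with at least 3 CpGs, and 1 to 2 when 1 animal was left out, with 2 without Tender 7. The cause of these changes was not tested, except that the only DMR has 1 covered cytosine. At position 7732 of chrUn_NW_020191657v1 the difference of 0.29 points turned to −0.55 (log2 ratio, limma), to −21.3 points without Tough 3, Tender 7 and Tender 8, and it ranged from −14.1 to 12.3 points when 1 animal was left out, being negative without Tough 1, Tough 2, Tough 3, Tender 7 or Tender 9. The F-test on recovered reads and the fits without the 3 libraries were chosen after seeing the data. No paired analysis was run, because the groups hold different steers and the sample labels give no pairing.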
